A study of Mus musculus with 2 samples.

Results

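Cathepsins and legumain are the proteases of the lysosome, and 10 of their genes were followed here by symbol among the 32285 genes of a single-nucleus count matrix: Ctsa, Ctsb, Ctsc, Ctsd, Ctsh, Ctsk, Ctsl, Ctss, Ctsz and Lgmn. Each symbol had 1 row. Together they held 29843 of the 7342649 unique molecular identifiers (UMIs, each a distinct captured RNA molecule) in 1812 nuclei. The nuclei came from mammary tumours of PyMT mice, whose tumours are driven by the polyoma middle T oncogene, backcrossed to B6. The samples were 1 from MYC-PyMT mice, which also carry S100a8-cre and a Rosa26 allele that expresses MYC after cre, and 1 from control-PyMT mice. S100a8 is best known as a gene of neutrophils and other myeloid cells, and for the mice that gave marrow the alleles listed are Fcgr1-cre and the H2B-mCherry reporter. Mice of both genotypes ate a low protein diet. Both sets of recipients had been irradiated at 7 weeks of age and had received total marrow cells from donors with Fcgr1-cre and a Rosa26 allele that yields H2B-mCherry after cre, so mCherry marks nuclei whose cell, or its precursors, had used the Fcgr1 driver. The diet began 2 weeks later and was given for 6 weeks. Tumour-associated macrophages were sorted on CD45, F4/80 and Vcam, without SiglecF, Ly6G, B220 or Ly6C, and nuclei released from them were selected for mCherry and for SYTO9, a nucleic acid dye, and against CD11b. The labels do not say how many mice gave nuclei to each sample.

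Barcodes carried the suffix 1 or 2, which marks a well of the instrument, and no label tied a well to a genotype. The matrix was therefore treated as 1 pooled sample, with no test, and values of each well are those of an unmapped well. Well 1 gave 1377 of the nuclei and well 2 gave 435; the wells shared 9 barcode sequences. Median depth was 2487 UMIs per barcode in well 1 and 2834 in well 2. Macrophage nuclei by marker genes numbered 1160, which is 64.0% of those kept, and 202 (11.1%) carried epithelial markers such as Epcam and Krt8 despite the CD45 sort. A further 305 barcodes were rich in mitochondrial and ribosomal protein transcripts and 145 matched neither lineage clearly.

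Cysteine cathepsins (Ctsb, Ctsc, Ctsh, Ctsk, Ctsl, Ctss and Ctsz) share the papain fold, whereas Ctsd is an aspartic protease, Ctsa a serine carboxypeptidase and legumain an asparaginyl endopeptidase. All are made as inactive precursors, are carried to endosomes and lysosomes largely by mannose-6-phosphate receptors and are activated there, in part by one another; legumain cuts several cathepsins into their 2-chain forms. In macrophages they digest engulfed cells and matrix and cut antigens and the invariant chain Cd74 for presentation. TFEB, TFE3 and MITF, which drive many lysosomal genes, bind E-box motifs built on CACGTG.

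RefSeq promoter windows on GRCm38.p6, from 250 bases before to 50 bases after a start site, were at hand for 8 of the 10 genes; Ctsb and Ctsh had no entry. Ctsa and Ctsd are shown because both were high in Gpnmb-positive nuclei and were seen together more often than their single shares give over all macrophage nuclei, though not in stress nuclei, and Ctss because its level ran the other way in those nuclei. Capitals mark CACGTG on either strand in Ctsa and Ctsd; in Ctss they mark a pair of GAAA 2 bases apart, a spacing like that bound by interferon regulatory factors, and GAGGAAGT, an Ets-type motif of the kind bound by PU.1, which lies on the opposite strand. Ctsa is at chr2:164833523-164833822 on the plus strand, Ctsd at chr7:142387778-142388077 on the minus strand and Ctss at chr3:95526536-95526835 on the plus strand.
Ctsa: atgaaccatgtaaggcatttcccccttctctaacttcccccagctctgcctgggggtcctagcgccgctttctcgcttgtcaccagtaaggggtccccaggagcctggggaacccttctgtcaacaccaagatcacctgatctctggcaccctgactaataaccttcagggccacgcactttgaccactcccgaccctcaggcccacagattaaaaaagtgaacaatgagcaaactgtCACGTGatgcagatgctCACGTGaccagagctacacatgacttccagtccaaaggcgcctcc
Ctsd: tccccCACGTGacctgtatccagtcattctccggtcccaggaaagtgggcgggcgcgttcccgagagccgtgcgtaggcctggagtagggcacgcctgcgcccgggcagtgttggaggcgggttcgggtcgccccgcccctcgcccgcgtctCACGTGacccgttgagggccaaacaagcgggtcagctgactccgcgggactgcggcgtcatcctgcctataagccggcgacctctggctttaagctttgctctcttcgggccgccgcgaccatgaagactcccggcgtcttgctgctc
Ctss: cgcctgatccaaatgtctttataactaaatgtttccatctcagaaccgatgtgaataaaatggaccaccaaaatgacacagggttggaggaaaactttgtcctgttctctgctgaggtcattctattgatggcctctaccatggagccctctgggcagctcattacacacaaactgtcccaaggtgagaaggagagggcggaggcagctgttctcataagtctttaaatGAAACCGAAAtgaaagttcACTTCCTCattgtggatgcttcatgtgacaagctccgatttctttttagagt

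CACGTG occurred in 4 of the 10 windows of the 8 genes, those of Ctsa, Ctsd, Ctsl and Lgmn, and in 7.15% of all 32851 windows of 300 bases. The other Ctsa window, at chr2:164832622-164832921, covers the annotated gene start at base 164832873 and had no CACGTG. Lgmn likewise had a window without it. Its longer form TCACGTGA, which contains it, was found in Ctsa and Ctsd and in 0.974% of all windows. In the Ctsa window shown, which lies inside the annotated gene, both copies of CACGTG lay next to the start site of that window. They were at bases -12 to -7 and 6 to 11 (counted from the start site, with no base 0). In Ctsd they lay at -245 to -240 and -98 to -93. GAGGAAGT was found in Ctss and Ctsc and in 3.20% of all windows, and the spaced GAAA pair in Ctss alone among the 8 genes and in 3.44% of all windows. GGGCGG, the core of an Sp1 site, was in 5 of the 8 genes and in 35.7% of all windows, and TGAGTCA, an AP-1 site, was in none of them and in 5.20% of all windows. These matches describe letters only. The motifs were chosen after the promoter letters had been seen, so the shares beside them are no test.

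Nuclei were placed in classes by marker genes that held none of the 10 proteases. Resident-like macrophage nuclei (195; 34 in well 1 and 161 in well 2) passed a level of 2000 CPM (UMIs scaled to a common total) for a list led by F13a1, Mrc1 and Cd163. Gpnmb-positive nuclei (24; 2 and 22) had at least 2 UMIs of Gpnmb, and Mmp12-high nuclei (48; 42 and 6) at least 2000 CPM of Mmp12. Stress nuclei (361; 283 and 78) had at least 5000 CPM of immediate early and heat shock genes such as Fos, Jun and Hspa1a. Other macrophage nuclei (532; 445 and 87) passed none of these, and 57 resident-like nuclei also passed the stress level. Class and well were therefore largely confounded, and several pooled ratios below changed in size or direction within a well. Every one of the 12 macrophage markers was present in the Gpnmb-positive nuclei, at a summed 2895 CPM against 4723 CPM in other macrophages.

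All 10 proteases were detected in macrophage nuclei, and together they reached 6418 CPM there (95% exact Poisson interval 6338 to 6499). Intervals here and below cover counting error only. Summed levels were 6750 CPM in resident-like, 7568 CPM in Gpnmb-positive, 5436 CPM in Mmp12-high, 7784 CPM in stress and 5535 CPM in other macrophage nuclei, and 886.9 CPM in epithelial nuclei. The intervals of stress (7617 to 7954) and Gpnmb-positive nuclei (7061 to 8103) overlapped, and so did those of Mmp12-high (5087 to 5802) and other macrophage nuclei (5428 to 5644). Resident-like nuclei (6549 to 6957) lay between these pairs, overlapping neither. Within well 2 the levels were 6930 CPM in resident-like, 7239 CPM in Gpnmb-positive, 4167 CPM in the 6 Mmp12-high (3346 to 5127), 6543 CPM in stress and 6881 CPM in other macrophage nuclei. Within well 1 they were 5532 CPM in resident-like, 10850 CPM in the 2 Gpnmb-positive, 5622 CPM in Mmp12-high, 8126 CPM in stress and 5270 CPM in other macrophage nuclei, so the order of the classes was not the same in both wells.

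Scaled to gene length in all macrophage nuclei, Ctsb had the highest level at 57.8 CPM per kb (56.3 to 59.4). Ctsc at 36.8 and Lgmn at 36.4 CPM per kb came next with overlapping intervals. Ctsd at 32.7, Ctss at 30.7 and Ctsz at 30.6 CPM per kb had overlapping intervals and could not be separated. Ctsa (17.6), Ctsh (12.5) and Ctsl (9.82 CPM per kb) were lower, and Ctsk was at 0.261 CPM per kb. Whether intronic reads were counted is not given in the sources used here, and the scale per gene length assumes that they were. Ctsd, Ctsl and Ctss overlap another annotated gene on the same strand, so reads in the shared stretch may have been lost or assigned to the neighbour. Ctsa, Ctsb, Ctsc and Ctsz overlap genes on the opposite strand only.

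**Figure D1:**
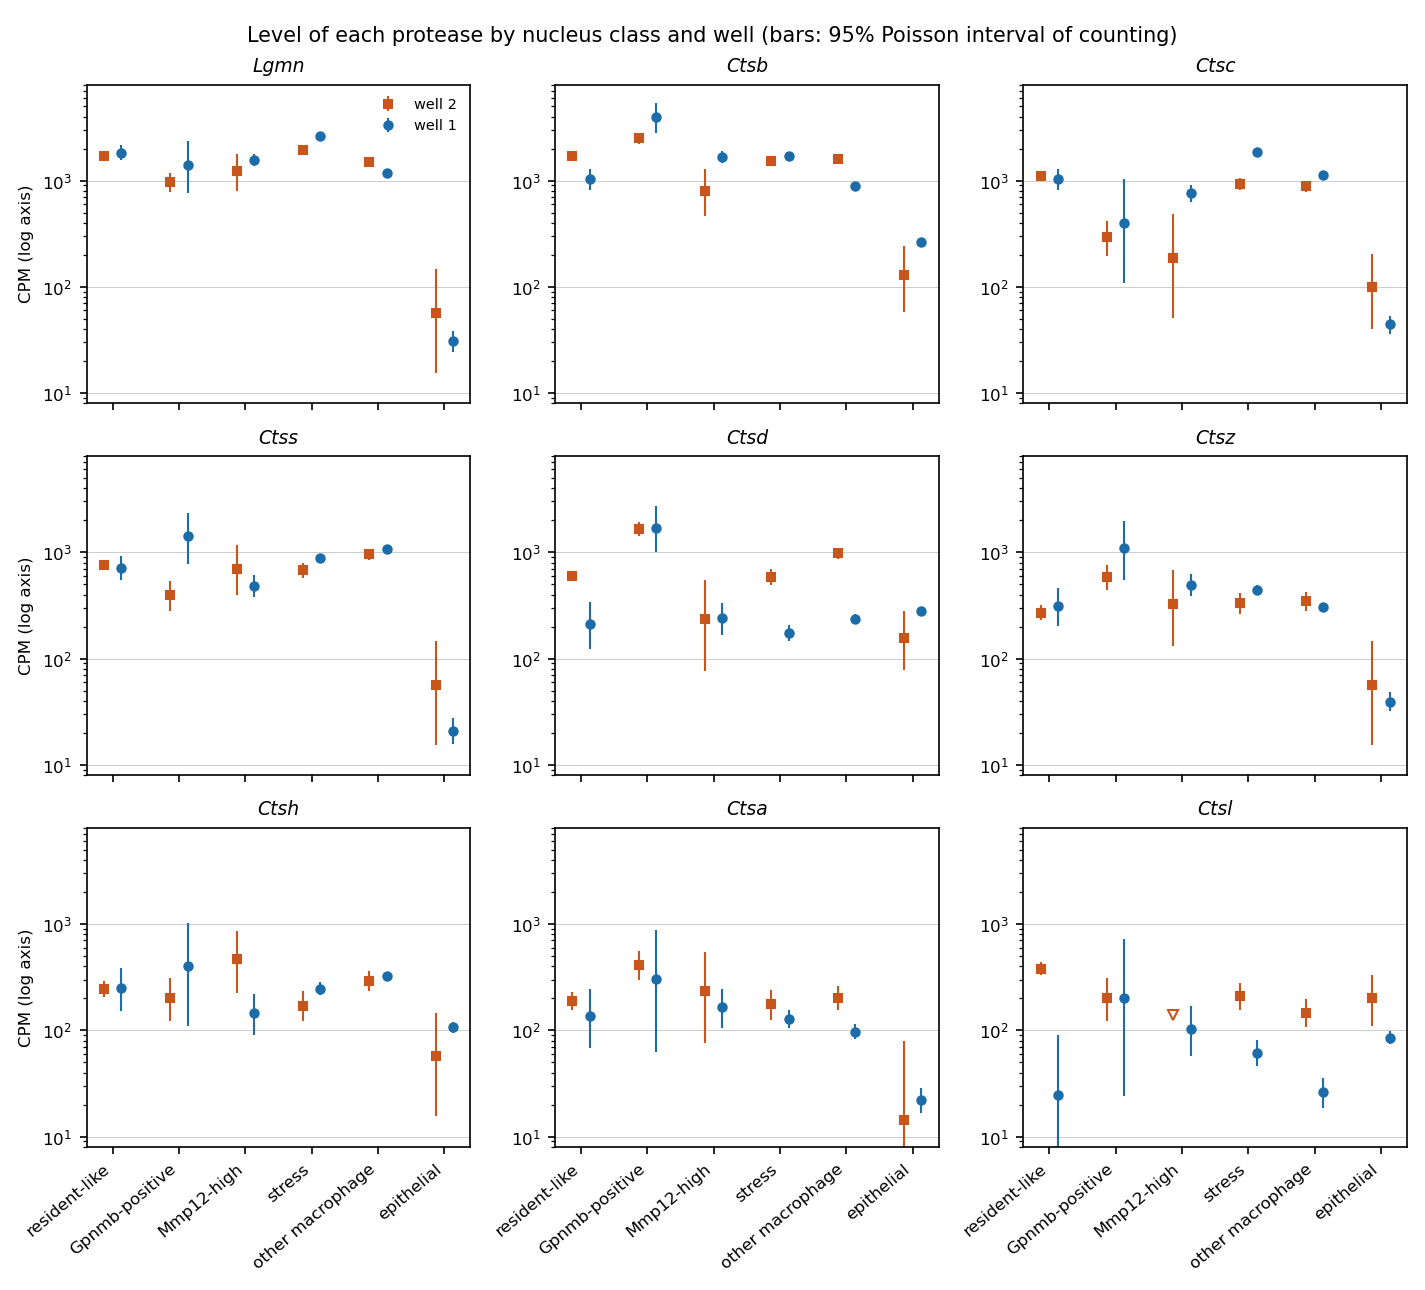
Level of 9 proteases in 6 nucleus classes, on a log axis in CPM, in well 2 (squares) and well 1 (circles), with 95% Poisson intervals; the open triangle is the limit of 3 counts where no UMI was seen. Ctsd and Ctsl stood higher in well 2 than in well 1 in resident-like, stress and other macrophages, while Lgmn, Ctss and Ctsc were far lower in epithelial than in macrophage nuclei in both wells.

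Of the macrophage classes, Gpnmb-positive nuclei held most of the departures past 2-fold; this is a class named for a lysosomal and cell-surface glycoprotein of lipid-laden macrophages. Of the 9 proteases with at least 20 UMIs in both classes together, 5 were at least 2-fold higher (Ctsd, Ctsl, Ctsa, Ctsb and Ctsz), where 12.9% of the 8457 genes measured passed the same line, and 2 were at least 2-fold lower (Ctsc and Ctss), where 27.8% of genes did. Their median ratio was 2.02, beside 0.837 over all genes measured. Ctsk did not reach 20 UMIs and was not counted.

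Ctsd, the main aspartic protease of the lysosome, had 1658 CPM in Gpnmb-positive nuclei against 360.0 CPM in other macrophages, a ratio of 4.61 (3.89 to 5.44). In well 1 its levels were 1708 CPM in the 2 Gpnmb-positive nuclei and 237.7 CPM in other macrophages, and in well 2 they were 1654 CPM and 981.6 CPM. The ratio within well 2 was 1.68 (1.38 to 2.05), so the direction held in both wells while the size in well 2 fell below 2-fold. A single nucleus held 25.4% of the 181 Ctsd UMIs of the class, and without it the level was 1306 CPM.

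Ctsa, which also shields the sialidase Neu1 and the galactosidase Glb1 from degradation, had 403.2 CPM in Gpnmb-positive nuclei and 114.3 CPM in other macrophages (ratio 3.53, 2.49 to 4.90). It was the protease that stayed above 2-fold within well 2, with 413.4 CPM against 203.0 CPM (2.04, 1.34 to 3.08). A single nucleus held 19.5% of the Ctsa UMIs of the class in well 2. Without that nucleus the Ctsa level was 353.4 CPM, which is below 2-fold. Ctsb, the most abundant cysteine cathepsin of these nuclei per length, had 2621 CPM in Gpnmb-positive nuclei and 996.8 CPM in other macrophages (2.63), and 2490 CPM against 1591 CPM within well 2 (1.57, 1.34 to 1.83). Ctsl had 201.6 CPM and 46.0 CPM in the 2 classes (4.39), from 22 UMIs in the Gpnmb-positive nuclei. Within well 2 its ratio was 1.38 with an interval from 0.769 to 2.39, so no difference was detectable at that depth. Ctsz, a carboxypeptidase, had 632.2 CPM and 312.9 CPM (2.02), and 584.8 CPM against 346.1 CPM within well 2 (1.69).

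Ctsc, the dipeptidyl peptidase that activates serine proteases of leukocyte granules, had 302.4 CPM in Gpnmb-positive nuclei against 1091 CPM in other macrophages (0.277, 0.190 to 0.391). Its ratio was 0.333 within well 2 (0.219 to 0.489) and 0.355 in well 1, so it was low in both wells. Ctss, the cathepsin that trims the invariant chain in antigen-presenting cells, had 485.6 CPM against 1061 CPM (0.458, 0.342 to 0.601) and 0.410 within well 2 (0.286 to 0.575). The 2 nuclei of well 1 went the other way for Ctss, with 1406 CPM against 1082 CPM in other macrophages, on 14 UMIs. Lgmn had 1008 CPM and 1234 CPM (0.817); its ratio was 1.19 in well 1, with an interval that held 1, and 0.652 in well 2 (0.518 to 0.815). Ctsh, an aminopeptidase, had 219.9 CPM and 318.4 CPM (0.691, 0.439 to 1.04), with 1.24 in well 1 on 4 UMIs and 0.697 in well 2, both with intervals that held 1. Within well 2 alone 1 of 9 proteases was at least 2-fold higher (11.3% of genes measured there) and 2 were at least 2-fold lower (21.5%).

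Genes that act with these proteases are read against the same shares over all genes, 12.9% at least 2-fold higher and 27.8% at least 2-fold lower. Of 3 measured protease inhibitors 2 were at least 2-fold higher and 1 was lower. Cstb (stefin B) had 183.3 CPM against 26.8 CPM in other macrophages (6.84, 3.85 to 11.7) and Serpinb6a 155.8 CPM against 56.9 CPM, while Cst3 (cystatin C) had 64.1 CPM against 283.4 CPM (0.226, 0.0905 to 0.470). Within well 2 their ratios were 2.40, 4.04 and 0.189, each past 2-fold.

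Of 10 genes of delivery to the lysosome, 1 was at least 2-fold higher and 2 were lower, no more than those shares give. Igf2r, the cation-independent mannose-6-phosphate receptor, had 247.4 CPM against 12.0 CPM (20.6, 11.3 to 37.9), and its ratio within well 2 was 8.18. M6pr, the cation-dependent receptor, had 1 UMI in the class, with a ratio of 0.0974 (0.00245 to 0.550). Sort1 had no UMI, and with an upper limit of 2.45 on its ratio no difference was detectable at this depth. Of 5 measured partners and substrates 1 was higher and 1 lower. Cd74, the invariant chain that Ctss cuts, had 210.7 CPM against 2225 CPM, and its ratio was 0.0970 within well 2. Neu1, which Ctsa protects, had 82.5 CPM against 29.5 CPM (2.79, 1.21 to 5.70), on 9 UMIs.

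Of 7 transcription factors 1 was at least 2-fold higher, near the 12.9% of all genes, and 3 were lower, beside 27.8% of all genes. Ciita, which drives class II genes and Cd74, had 1 UMI in Gpnmb-positive nuclei and 405.9 CPM in other macrophages (0.0226, 0.000571 to 0.126), and Irf8 had 82.5 CPM against 327.7 CPM. Tfe3, with 1 UMI, was the third, and the higher one, Tfec, rested on 6 UMIs with an interval from 0.850 to 5.81. Mitf, which acts on lysosomal genes, had 678.0 CPM against 582.1 CPM. Of the 5 other lysosomal peptidases Scpep1 and Dpp7 were higher and Prcp and Napsa lower with both wells pooled. Scpep1 and Prcp were not past 2-fold in either well alone. Dpp7 and Napsa rested on 4 and 0 UMIs in the class, with intervals that held 1. Of 2 measured other cathepsins, Ctse was lower, with no UMI and an upper limit of 0.617 on its ratio. In well 1 that call rested on 2 Gpnmb-positive nuclei, and in well 2 Ctse had under 20 UMIs in the 2 classes together.

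**Figure D2:**
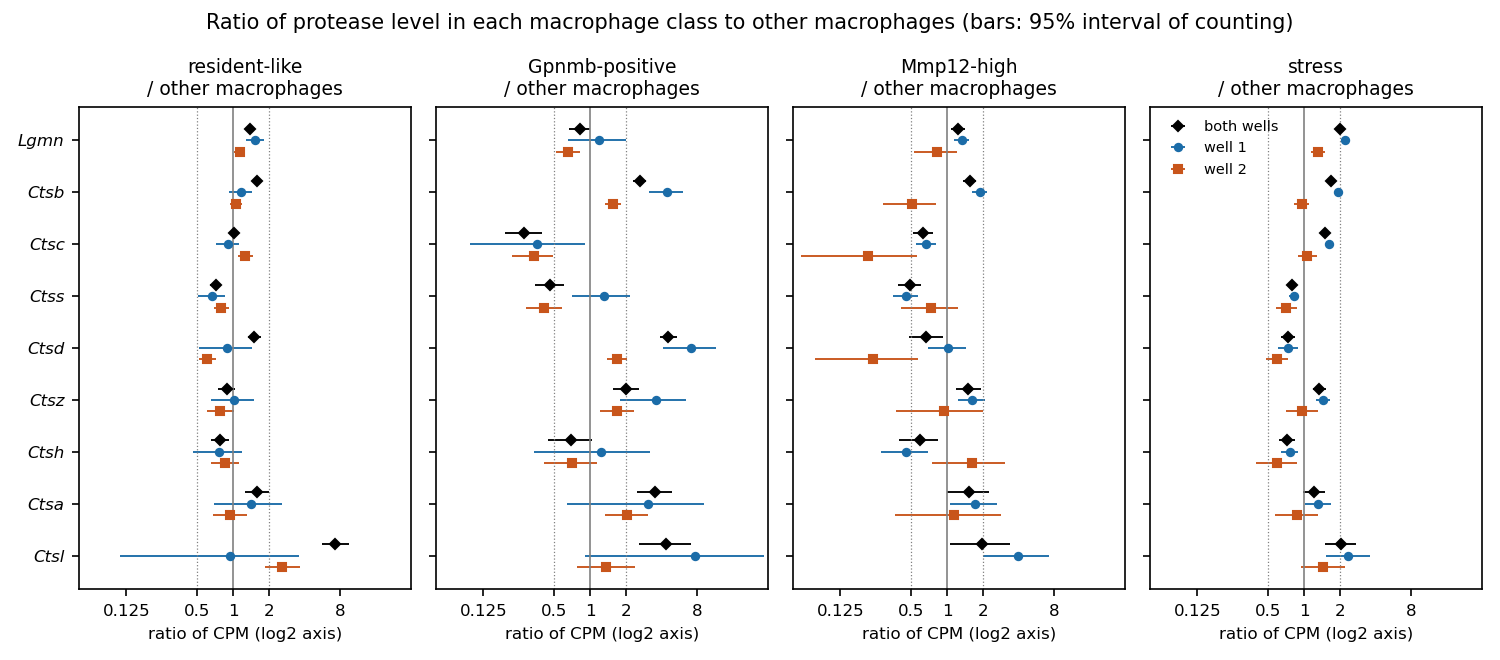
Ratio of the CPM of each protease in 4 macrophage classes to that in other macrophages, on a log2 axis, for both wells (diamonds), well 1 (circles) and well 2 (squares), with 95% intervals from counting; dotted lines mark 2-fold, and points with fewer than 20 UMIs in the 2 classes together or with no UMI in the class are left out. Ctsd, Ctsa, Ctsb and Ctsz lay above 1 and Ctsc lay below 1 in Gpnmb-positive nuclei in both wells, while the resident-like ratio of Ctsl, 7.28 pooled, was 2.60 in well 2.

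In resident-like nuclei Ctsl, an endopeptidase of broad reach, was the 1 protease of 9 that was at least 2-fold higher than in other macrophages (8.05% of 9088 genes measured were), and 0 of 9 were at least 2-fold lower (9.99% of genes). Ctsl had 334.6 CPM against 46.0 CPM, a ratio of 7.28 (5.63 to 9.49). Of its 210 UMIs there, 208 came from well 2, where the levels were 380.4 CPM in resident-like and 146.4 CPM in other macrophages (2.60, 1.87 to 3.68). In well 1 they were 24.8 CPM, from 2 UMIs, and 26.2 CPM (0.945, 0.111 to 3.64), so a difference was not detectable there. Well 2 alone carried the call.

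Ctsd showed a pooled ratio in resident-like nuclei that turned within wells. It had 546.6 CPM in resident-like and 360.0 CPM in other macrophages (1.52), yet 596.3 CPM against 981.6 CPM in well 2 (0.607, 0.517 to 0.714) and 210.4 CPM against 237.7 CPM in well 1 (0.885). Lgmn was modestly higher in each view, at 1702 CPM against 1234 CPM pooled (1.38), with ratios of 1.55 in well 1 and 1.13 in well 2. Ctss was lower in each, at 756.9 CPM against 1061 CPM (0.713), with 0.664 in well 1 and 0.796 in well 2. Ctsc had 1101 CPM against 1091 CPM pooled (1.01, 0.924 to 1.10), but 1112 CPM against 878.5 CPM in well 2 (1.27, 1.09 to 1.47) and 1027 CPM against 1133 CPM in well 1 (0.907, 0.719 to 1.13). Of the 10 delivery genes, Lamp1, an abundant membrane protein of the lysosome, was at least 2-fold higher (466.9 CPM against 201.9 CPM, and 1.86 within well 2). Among the other lists Ctse was the 1 gene at least 2-fold lower with both wells pooled. In well 1 Ctse was not past 2-fold, and in well 2 it had under 20 UMIs in the 2 classes together. The genes at least 2-fold lower within a well were Ctso, Napsa and Serpinb6a in well 1 and Napsa in well 2. Related genes at least 2-fold higher within a well were Nagpa in well 1 and Serpinb6a and Tfec in well 2. Serpinb6a thus went opposite ways in the 2 wells, and Lamp1 passed 2-fold in neither well alone. Of all genes measured, 8.81% were higher and 17.8% lower in well 1, and 6.97% and 6.11% in well 2.

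In stress nuclei 2 of 9 proteases were at least 2-fold higher than in other macrophages (6.16% of 9377 genes measured), and both sat at the line; 0 were at least 2-fold lower (8.88% of genes). Lgmn had 2480 CPM against 1234 CPM, a ratio of 2.01 (1.90 to 2.13). It was 2629 CPM against 1184 CPM in well 1 (2.22) and 1940 CPM against 1484 CPM in well 2 (1.31, 1.14 to 1.49), higher in both. Ctsl had 93.6 CPM against 46.0 CPM (2.04, 1.51 to 2.76), with 2.35 in well 1 and 1.44 in well 2 (0.934 to 2.21). Ctsb had 1673 CPM against 996.8 CPM (1.68) and Ctsc 1642 CPM against 1091 CPM (1.51), but both ratios came from well 1 (1.95 and 1.62); in well 2 they were 0.953 and 1.06 with intervals that held 1. Ctsd, Ctsh and Ctss were lower in both wells, with pooled ratios of 0.730, 0.722 and 0.790. Of the 5 other lysosomal peptidases Scpep1, a serine carboxypeptidase related to Ctsa, was at least 2-fold higher, at 171.2 CPM against 64.0 CPM. It passed 2-fold in well 1 and not in well 2.

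In Mmp12-high nuclei, named for the macrophage elastase, 0 of 9 proteases were at least 2-fold higher (7.19% of 8469 genes measured) and 1, Ctss, was at least 2-fold lower (27.9% of genes). Ctss had 510.5 CPM against 1061 CPM in other macrophages (0.481, 0.383 to 0.598), with 0.446 in well 1, which held 42 of the 48 nuclei, and 0.733 in well 2 (0.405 to 1.23), where it was not past 2-fold. Ctsb had 1550 CPM against 996.8 CPM (1.56), and in well 1 1661 CPM against 880.0 CPM (1.89, 1.64 to 2.17), while the 6 nuclei of well 2 had 795.9 CPM against 1591 CPM, on 17 UMIs. Ctsl had 90.1 CPM against 46.0 CPM (1.96, 1.05 to 3.42); in well 1 it was 3.95 times as high (2.02 to 7.30), on 15 UMIs, and it had no UMI in well 2. Ctsh had 186.2 CPM against 318.4 CPM (0.585), with 144.7 CPM against 324.1 CPM in well 1 (0.446) but 468.2 CPM against 289.5 CPM in well 2 (1.62, 0.749 to 3.12), on 10 UMIs. Ctsc was lower in both wells, at 684.7 CPM against 1091 CPM pooled (0.628, 0.515 to 0.758). Its ratio was 0.669 in well 1 and 0.213 in well 2 (0.0577 to 0.552), on 4 UMIs. Ctsd was lower in well 2 (0.239, 0.0769 to 0.563), on 5 UMIs, but not in well 1 (1.015). Stress genes were also high in these nuclei, at 8673 CPM for the stress list, and 26 macrophage nuclei passed both the Mmp12 and the stress level; the part of the stress genes in these ratios was not tested. Of the related genes, Scpep1 had 162.2 CPM against 64.0 CPM (2.53, 1.60 to 3.88), with 3.13 in well 1 and 0.853 in well 2 on 2 UMIs. Ciita, on 26 UMIs, had 156.2 CPM against 405.9 CPM (0.385, 0.250 to 0.568), with 0.336 in well 1 and 0.728 in well 2 (0.262 to 1.63). Glb1 (0.428), Serpinb6a (0.317), Tpp1 (0.311) and Ctse (0.215) were also at least 2-fold lower pooled, on 6, 3, 3 and 2 UMIs, of which well 2 held 1 in all. The ratios of Cstb (2.02), Ctso, Napsa, Igf2r and Nagpa (0.314 to 0.499) passed 2-fold with intervals that held 1.

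The other macrophages were themselves unlike between the wells. In this class Ctsd had 981.6 CPM in well 2 and 237.7 CPM in well 1 (4.13, 3.53 to 4.83), Ctsl 146.4 CPM and 26.2 CPM (5.59), Ctsa 203.0 CPM and 96.9 CPM (2.10) and Ctsb 1591 CPM and 880.0 CPM (1.81). These 3 of 9 proteases past 2-fold (Ctsd, Ctsl and Ctsa) stood beside 8.46% of 8267 genes measured that were at least 2-fold higher in well 2, and 0 proteases beside 10.4% of genes that were at least 2-fold lower. Ctsc was lower in well 2, at 878.5 CPM against 1133 CPM in well 1 (0.776), and Ctss differed by less than counting error (0.886, 0.779 to 1.01). Stress nuclei showed the same order for Ctsd (582.4 CPM in well 2, 174.9 CPM in well 1) and Ctsl (210.2 CPM and 61.5 CPM). Genotype, mouse and library cannot be told apart in this difference.

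Ctsk, the collagenase of osteoclasts, had 19 UMIs in 15 of the 1812 nuclei. They were 4 UMIs in 3 Gpnmb-positive nuclei, 5 in 5 stress nuclei, 1 in another macrophage nucleus, 1 in an epithelial nucleus and 8 in 5 nuclei of undetermined lineage. None was seen in the 195 resident-like or 48 Mmp12-high nuclei, which allows levels of up to 4.78 CPM and 18.0 CPM from 3 counts. Fibroblast markers had a UMI in 3 of the 15 nuclei. In Gpnmb-positive nuclei its level was 36.7 CPM, with an interval from 9.99 to 93.8. Ctsk lies 17.4 kb from Ctss on chromosome 3; per gene length their levels in macrophage nuclei were 0.261 and 30.7 CPM per kb.

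Between lineages, 7 of 9 proteases were at least 2-fold higher in macrophage than in epithelial nuclei, where 16.9% of 12521 genes measured were. Their median ratio was 6.55, beside 0.790 over all genes measured. Lgmn had 1666 CPM in macrophage and 31.4 CPM in epithelial nuclei (53.0-fold, 42.4 to 67.0), Ctss 908.0 CPM and 21.9 CPM (41.5-fold) and Ctsc 1206 CPM and 45.8 CPM (26.3-fold). Ctsz (8.87-fold), Ctsa (6.55-fold), Ctsb (5.27-fold) and Ctsh (2.59-fold) followed. Of the related genes, 4 of 5 other lysosomal peptidases and 6 of 7 transcription factors were at least 2-fold higher in macrophage nuclei. So were 3 of 5 partners and substrates, 4 of 10 delivery genes, 1 of 3 inhibitors and 1 of 3 other cathepsins. At least 2-fold lower were Igf2r and Sort1 of the delivery genes and Ctsf of the other cathepsins, beside 28.6% of genes measured. Ctsd had 395.9 CPM and 274.3 CPM (1.44-fold) and Ctsl 113.5 CPM and 88.4 CPM (1.28-fold). Within well 1, which held 189 of the 202 epithelial nuclei, Ctsd had 222.6 CPM in macrophage and 277.7 CPM in epithelial nuclei (0.802, 0.716 to 0.897) and Ctsl 42.4 CPM and 85.2 CPM (0.498, 0.392 to 0.631). In well 2 the Ctsd ratio was 4.93 and the Ctsl ratio 1.34, on 13 epithelial nuclei.

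Free RNA can leave UMIs in nuclei of another type, so the epithelial level was set beside that of leukocyte genes that served in no gate. The epithelial level, as a share of the macrophage level, was 2.44% for Ptprc, 1.65% for Dock2, 2.51% for Laptm5 and 2.20% for Fcer1g. Lgmn at 1.89% (1.49 to 2.36) and Ctss at 2.41% (1.81 to 3.15) lay in this range. Median depths were 2924 UMIs in macrophage and 4972 UMIs in epithelial nuclei. The part of free RNA in these levels was not tested. Ctsc, with an interval from 3.13% to 4.57%, was slightly above it. Ctsz (11.3%), Ctsa (15.3%), Ctsb (19.0%), Ctsh (38.6%), Ctsd (69.3%) and Ctsl (77.9%) lay above it beyond counting error with both wells pooled. Within well 2, on 13 epithelial nuclei, Ptprc was at 6.68%, Dock2 at 6.82% and Laptm5 at 10.1%, and Fcer1g had no epithelial UMI. Ctsa at 6.78% and Ctsb at 7.61% lay within that spread there. Ctsz at 17.3% (4.69 to 44.7) and Ctsh at 23.4% (6.33 to 60.5), each on 4 epithelial UMIs, had intervals that reached into it. The lower limit of Ctsd at 20.3% (10.1 to 36.4) was at the level of Laptm5, and Ctsl at 74.4% (40.2 to 126.7) stayed above. Within well 1 Ctsd at 124.8% and Ctsl at 200.8% were above the macrophage level. The deepest epithelial nucleus had 103328 UMIs, so that a few nuclei weigh heavily in these sums.

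**Figure D3:**
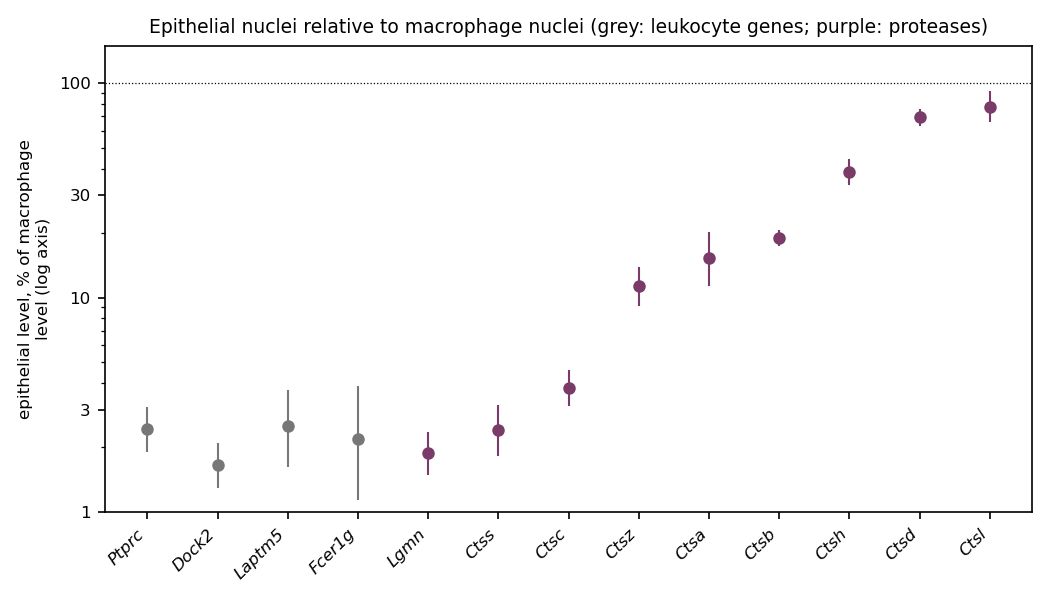
Level in epithelial nuclei as a percent of the level in macrophage nuclei, on a log axis, for 4 leukocyte genes (grey) and 9 proteases (purple), with 95% intervals from counting. Both wells are pooled. Lgmn and Ctss lie among the leukocyte genes at 1.65% to 2.51%, and Ctsd at 69.3% and Ctsl at 77.9% lie just below the dotted line of equal levels. In well 1 alone, which held 189 of the 202 epithelial nuclei, Ctsd was at 124.8% (111.5 to 139.6) and Ctsl at 200.8% (158.6 to 255.3).

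Co-detection was read after each nucleus had been thinned to 1000 UMIs, which left out 45 of the 1160 macrophage nuclei and 13 of the 202 epithelial nuclei below that depth. A macrophage nucleus then showed 3.36 ± 1.42 of the 10 proteases on average (SD over 1115 nuclei; nuclei are not replicates of a condition). Means were 3.60 in resident-like, 3.74 in Gpnmb-positive, 2.82 in Mmp12-high, 3.35 in stress and 3.29 in other macrophage nuclei, and 0.720 in epithelial nuclei. Within well 2 they were 3.63 in resident-like, 3.52 in Gpnmb-positive and 3.85 in other macrophage nuclei, the opposite order. Without thinning the macrophage mean was 5.39. No protease was seen in 1.35% of macrophage nuclei and in 43.4% of epithelial nuclei, and 5 or more were seen in 21.3% of macrophage nuclei and in 0 of 189 epithelial nuclei.

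**Figure D4:**
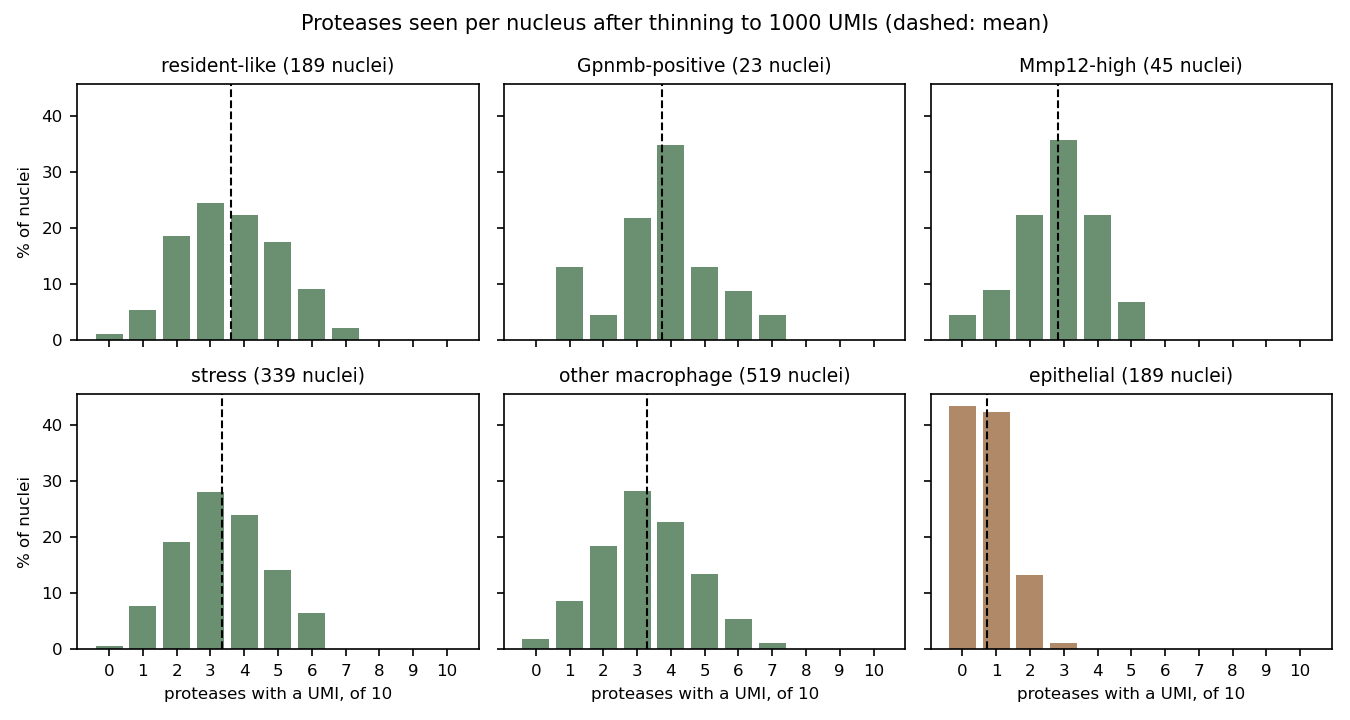
Number of the 10 proteases with a UMI per nucleus after thinning to 1000 UMIs, as a percent of the nuclei of each class; dashed lines mark the means. Macrophage classes centre on 3 or 4 proteases, and epithelial nuclei lie mostly at 0 or 1.

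Lgmn was seen in 70.0% of thinned macrophage nuclei and 3.70% of epithelial nuclei. Ctsb was seen in 61.4% and 21.2%, Ctss in 54.3% and 4.76%, Ctsd in 23.0% and 10.6% and Ctsl in 7.62% and 7.41% of macrophage and epithelial nuclei. Of these Ctsl was least apart with both wells pooled. In well 1 the Ctsl level was 42.4 CPM in macrophage and 85.2 CPM in epithelial nuclei. Ctsd was seen in 69.6% of Gpnmb-positive nuclei and in 21.4% of other macrophage nuclei. Within well 2 the shares were 66.7% (43.0 to 85.4) and 52.9% (41.8 to 63.9), with overlapping intervals, whereas other macrophages of well 1 were at 15.2%. Ctsc was seen in 3 of 23 Gpnmb-positive and 297 of 519 other macrophage nuclei, and within well 2 in 2 of 21 and 45 of 85. Ctsb with Lgmn was the most frequent pair, seen together in 45.7% of macrophage nuclei (42.7 to 48.6), where the product of the single shares was 43.0%. Ctsc with Lgmn (40.8%, product 38.7%) and Ctss with Lgmn (39.2%, product 38.0%) followed.

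At the median, pairs were seen together about as often as the product of their single shares gives. Among the 36 pairs with at least 5 nuclei expected in all macrophage nuclei, the median ratio of the observed share to the product was 1.03, with 22 above 1. Ctsa with Ctsd had the highest ratio, 1.62, from 47 nuclei. Within well 1 the pair was seen in 14 nuclei where 9.31 were expected, and within well 2 in 33 where 26.2 were expected (1.26). In other macrophages it was 1.93 in well 1 (10 nuclei, 5.17 expected) and 1.08 in well 2 (8 nuclei, 7.41 expected), and in resident-like nuclei of well 2 it was 1.52 (18 nuclei, 11.8 expected). In stress nuclei the same pair had the lowest ratio of the 33 pairs with at least 5 nuclei expected, 0.595 (3 nuclei, 5.04 expected), with 0.818 in well 1 and 0.287 in well 2, on 2 nuclei and 1 nucleus; a second random thinning gave 0.904 there and 1.46 over all macrophage nuclei. Ctsl with Ctss had the lowest ratio, 0.824, with 38 nuclei, and was at 0.861 in well 1 and 0.911 in well 2.

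Across the 6 classes, the genes whose level followed the summed proteases most closely were Ncoa3, a nuclear receptor coactivator (Pearson r 0.997), Rragc, a GTPase of the lysosomal mTORC1 pathway (0.992), Npc2, the soluble cholesterol carrier of the lysosome (0.990), Pcyt1a, an enzyme of phosphatidylcholine synthesis (0.990) and Adgre5 (0.988), among 8247 genes compared on log2 of CPM + 10. Npc2 had 320.7 CPM in Gpnmb-positive, 258.1 CPM in stress, 242.2 CPM in resident-like, 211.7 CPM in other macrophage, 204.2 CPM in Mmp12-high and 54.1 CPM in epithelial nuclei. For Lgmn, whose levels spanned the widest range, the closest were Cd300lf (0.996), Csf3r (0.996), Kctd12 (0.993), Mir142hg (0.992) and Myo1c (0.992). With 6 classes that share libraries, and 1 of them epithelial and low, these values are a description.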

How the data were processed

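The authors deposited UMI counts per gene and barcode in 1 matrix for both samples, made with Cell Ranger 5.0 on mm10 per the submitters' processing notes and version 5.0.1 per the file headers. Nothing in the sources used here gives the annotation, intron counting, barcode calling or depth equalisation. Positions and lengths come from GENCODE vM21 (GRCm38), where 32158 of 32285 identifiers matched. A count is of molecules, so PCR copies do not add to it.

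Barcodes with under 500 UMIs, under 300 genes or over 5% mitochondrial UMIs were removed (21 of 1838), as were 5 doublets called by Scrublet per well (0 in well 1, 5 in well 2; scanpy 1.11.5); doublets of like nuclei would remain. Barcodes with at least 3% mitochondrial and ribosomal protein UMIs were set apart. Macrophage nuclei had at least 3 UMIs of macrophage, resident-like, Gpnmb or Mmp12 markers making up 0.75 or more of these and epithelial markers, and epithelial nuclei the reverse. Classes were gated in the order resident-like, Gpnmb-positive, Mmp12-high, stress, other. Members and lists were chosen with earlier results of these data known. The cuts were set after marker distributions had been seen, and the lineage gate was widened to keep Gpnmb nuclei after viewing a listing that also showed summed protease UMIs.

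Levels are CPM of summed counts with 95% Poisson intervals, and ratios have conditional binomial intervals (scipy 1.17.1, numpy 2.4.6, pandas 2.3.3, Python 3.11.15). A gene counts as higher or lower at a ratio of at least 2 or at most 0.5. The minimum of 20 UMIs, meant for the background genes, was applied to the proteases too after the counts of Ctsk had been seen. With 1 sample per genotype no test was made. The named genes are the 10 proteases, in lists of related genes at most the 4 with most UMIs plus those past 2-fold that are named after their values were seen, and by likeness the 5 with the highest Pearson r. The 2-fold rule was tested on simulated data. Alternatives were a 1000 UMI minimum, nuclei weighted alike, doublets kept, Leiden classes (igraph 0.11.9), other cuts, each well alone, scaling without mitochondrial and ribosomal protein genes, and background minimums of 1 and 200 UMIs. Motifs were chosen after promoter letters had been seen.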

Additional observations from a re-analysis of the deposited data

Results flagged for a closer look

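Barcodes that enter no comparison also held protease UMIs. The summed level of the 10 proteases was 3872 CPM in the 305 barcodes rich in mitochondrial and ribosomal protein transcripts and 2352 CPM in the 145 barcodes of undetermined lineage, both above the 886.9 CPM of epithelial nuclei. The share of macrophage RNA in these barcodes was not tested.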

How the results depend on the processing

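No paired analysis was possible because no label ties a well to a sample and each genotype has 1 sample. The count of proteases at least 2-fold higher in Gpnmb-positive nuclei was 5 and fell to 1 in well 2 alone, and the count of 2 at least 2-fold lower was 1 in well 1 alone. The resident-like count of 1 higher was 0 in well 1 alone. Of the stress count of 2 higher, 0 remained with a minimum of 1000 UMIs, with doublets kept, with marker cuts 1.5 times higher and in well 2 alone, and 1 with Leiden classes, where 1 was lower. For Mmp12-high nuclei 1 protease was higher with a minimum of 1000 UMIs, with nuclei weighted alike, with cuts 1.5 times lower and in well 1 alone; the count of 1 lower became 0 with cuts 1.5 times higher, 2 in well 1 and 3 in well 2, where Ctsl had no UMI. With background genes of at least 1 UMI, which lets Ctsk count, lower calls were 1 in resident-like and 2 in Mmp12-high nuclei. The count of 7 in macrophage over epithelial nuclei stayed within 1.5 times in every setting run. Among ratios past 2-fold, direction turned for Ctsl in resident-like nuclei (0.945) and Ctss in Gpnmb-positive nuclei (1.30) in well 1 alone, and for Ctsl in stress nuclei (0.983) with Leiden classes; the cause was not tested. Counting ratios of any size, direction turned for 11 of 51 in well 1 alone, 11 of 54 in well 2 alone, 3 of 33 with Leiden classes, and 2 of 55 each with nuclei weighted alike and with cuts 1.5 times lower. Leiden clusters gave no Gpnmb-positive or Mmp12-high class, so those have no value there. The mean number of proteases seen per macrophage nucleus was 3.36 at 1000 UMIs and 5.39 with no thinning. The 1000 UMI thinning leaves out the shallowest nuclei, and depth limits Ctsl, Ctsa and Ctsk most. The alternatives of leaving out the deepest nucleus of each class or the nucleus with most UMIs of a gene, of background genes with at least 200 UMIs, and of co-detection in well 2 alone were chosen after seeing the data. Leaving out the deepest nucleus moved 0 of 55 ratios.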
